A study of Drosophila melanogaster with 6 samples.

Results

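Skeletal muscle fibres of the Drosophila embryo form when a founder cell, which sets the identity of the fibre, fuses with fusion-competent myoblasts around it. The founder cell carries the immunoglobulin-superfamily receptors Kirre (also called Dumbfounded) and Rst (Roughest), which act redundantly, and the fusion-competent cell carries their partners Sns and Hbs. Contact between these receptors recruits adaptors and actin regulators to the site of adhesion, where a focus of branched actin in the fusion-competent cell pushes into the founder cell before the membranes merge. Described here are 10 genes of this process, chosen by name: kirre, rst, sns, hbs, rols, blow, mbc, sing, WASp and Vrp1. Of the 10, 8 had a probe set that named them alone, out of 11982 genes measured in this way. No probe set named mbc, which encodes a Rac activator, or WASp, an activator of actin nucleation, alone, so both were not analysed here.

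RNA of whole Drosophila melanogaster embryos was measured on Affymetrix Drosophila Genome 2.0 arrays, an oligonucleotide array of the fly transcriptome. The wild-type group was the Oregon R line, and the foxL1 null group carried the alleles foxL1del and foxLCr (spelled foxL1cr in the growth protocol) of FoxL1, a forkhead transcription factor gene, in the combination foxLCr/foxL1del. Each genotype had 3 arrays, which the labels call independent biological samples, numbered 1 to 3. Embryos of both groups were of stages 11 to 15 per the labels, collected over 8 h and aged for another 11 h at room temperature. This ageing seems later than those stages, and the labels do not settle which holds. The embryos were laid by Oregon R or by foxL1 null flies, so fly stock and genotype cannot be told apart. With so few arrays, their number sets how precise each value can be.

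Values are log2 signals after robust multi-array averaging (RMA), and differences are null minus wild type, fitted with limma over all 18769 probe sets that are not controls. A gene was called when its p-value, adjusted over all these probe sets by the method of Benjamini and Hochberg, was below 0.05. The FoxL1 probe set read 4.85, 5.12 and 5.01 in the Oregon R arrays and 4.23, 4.35 and 3.37 in the null group. It was lower in every null array, and the groups were apart at 31.9% of all genes. Its difference was -1.01 (limma adjusted p = 0.0489). Between same-numbered arrays it was -0.62, -0.77 and -1.64, the last with null array 3. The 12 measured contractile muscle genes lay at percentile 90.9 (Zasp52) to 99.4 (Mlc1) of all probe sets in the wild type, and the 4 measured neuronal genes at 53.1 (futsch), 57.2 (brp), 73.4 (nSyb) and 95.3 (elav). Null array 3 stood apart in RNA quality: the 3' minus 5' difference of its actin control was 0.203, against 0.666 to 0.823 in the other 5 arrays. Its GAPDH difference was 0.624, the highest of the 6 (0.429 to 0.527 in the others), its eIF-4a difference was 0.706, the lowest, and its weight in limma's array weighting was 0.317, against 0.600 to 2.15.

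None of the 8 measured fusion genes passed the test between the genotypes. Of the 8, 0 rose and 0 fell in the limma fit, where 7.84% of all probe sets were called (4.73% as higher and 3.12% as lower) and 10.2% of all genes, and 0 had an unadjusted p below 0.05, against 27.1% of genes. In the null embryos 4 genes read higher (kirre, sns, blow and Vrp1) and 4 lower (rst, hbs, rols and sing), with a median difference of 0.003 log2 units, beside -0.07 over all genes. After each array was centred on its median, rst also read higher, and these medians were 0.12 and 0.05. The 3 null values overlapped the 3 wild-type values for all 8 genes, while the groups were apart at 31.9% of all genes. For each of the 8, the range among the 3 arrays of either genotype was larger than the difference between the genotypes. The 95% confidence intervals of the differences ran from -0.69 at the lowest to 0.85 at the highest, so each excluded a change of 1 log2 unit in either direction. Which smaller changes were excluded differed by gene, from the narrowest interval (blow, -0.21 to 0.34) to the widest (kirre, -0.38 to 0.77). To be called in this fit, which does not use the array numbers, the differences would have had to reach 0.48 (blow) to 1.01 (kirre), given the limma standard errors. With the array numbers as a block the standard errors of all 8 genes were smaller. They were 0.16 against 0.25 for kirre and 0.11 against 0.24 for sns, but 0.133 against 0.134 for rols. None of the 8 was called in that fit either (lowest limma adjusted p = 0.221). The whole-embryo signal does not tell a change in the number of myoblasts from a change in transcript per cell.

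**Figure D1:**
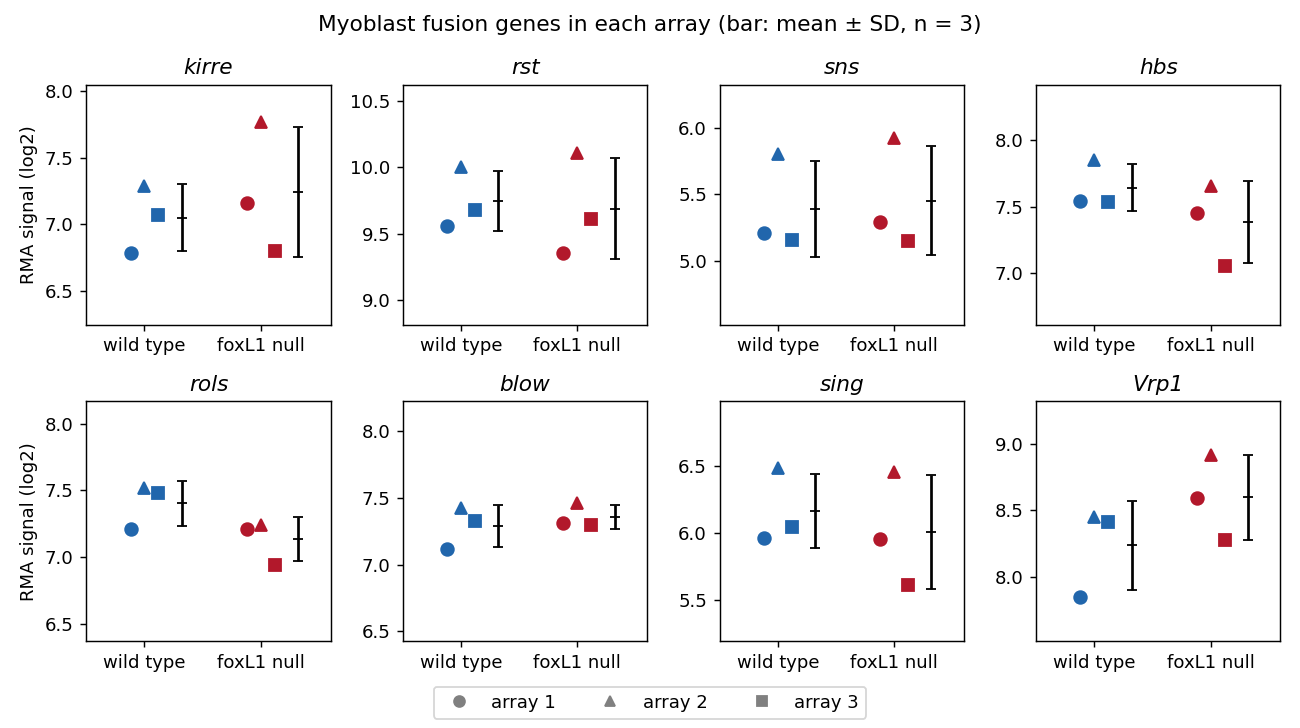
RMA signal (log2, y axis; every panel spans the same range) of the 8 measured fusion genes in the 3 wild-type (blue) and 3 foxL1 null (red) arrays, with marker shapes for the array numbers and bars for mean ± SD (n = 3). The genotypes overlap in every panel, and in every panel the array numbered 2 (triangle) is the highest of its genotype.

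Among the receptors of the founder cell, kirre read 6.79, 7.29 and 7.07 in the Oregon R arrays and 7.16, 7.77 and 6.80 in the null group. The highest and the second lowest of its 6 values were both from null arrays, and the null arrays spanned 0.97 log2 units. Its mean was 7.05 ± 0.25 against 7.24 ± 0.49 (SD, n = 3 each), a limma log2 difference of 0.19 (95% interval -0.38 to 0.77, adjusted p = 0.726). A second kirre probe set read low in all samples, at 3.24 ± 0.10 and 3.28 ± 0.02 (SD, n = 3 each). That was percentile 30.7 of all probe sets in the wild type, where a fall may be compressed. The paralog rst had 9.56, 10.00 and 9.68 in the Oregon R arrays and 9.35, 10.10 and 9.61 in the null embryos. Null arrays gave both its lowest and its highest value. Its means were 9.75 ± 0.23 and 9.69 ± 0.38 (SD, n = 3 each; limma log2 difference -0.06, 95% interval -0.53 to 0.42, adjusted p = 0.913). In the RefSeq gene table (Release 6 plus ISO1 MT) the span of rst lies inside the span of kirre on the X chromosome. The positions of the probes were not used here, so whether a probe set could pick up the transcript of the neighbour was not tested.

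On the side of the fusion-competent cell, sns, whose product binds Kirre and Rst, gave 5.21, 5.80 and 5.15 in the Oregon R arrays and 5.29, 5.92 and 5.15 in the null group. Here the arrays with the same number lay within 0.12 log2 units of each other, while the arrays of 1 genotype spanned 0.65 and 0.77. The mean of sns was 5.39 ± 0.36 against 5.45 ± 0.41 (SD, n = 3 each; limma log2 difference 0.06, 95% interval -0.50 to 0.63, adjusted p = 0.921). For hbs, the paralog that partly overlaps with sns in function, the wild-type arrays had 7.55, 7.85 and 7.54 and the null arrays 7.45, 7.66 and 7.05. The lowest value came from null array 3, and null array 2 lay inside the wild-type range. The difference was -0.26 (means 7.64 ± 0.18 and 7.39 ± 0.31, SD, n = 3 each; limma 95% interval -0.66 to 0.15, adjusted p = 0.466), with the null array lower in each of the same-numbered pairs, by 0.09, 0.19 and 0.48.

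Both paralog pairs were also compared within each array, which asks whether one member changed more than the other. The log2 signal of rst minus that of kirre was 2.70 ± 0.09 in the Oregon R arrays and 2.45 ± 0.32 in the null group (SD, n = 3 each), a shift of -0.25 (exact permutation test, 2-sided p = 0.4). That of hbs minus sns was 2.26 ± 0.18 and 1.94 ± 0.21 (SD, n = 3 each), a shift of -0.32 (exact permutation test, 2-sided p = 0.2). Neither shift passed, adjusted p being 0.4 for each over the 2 contrasts, and 3 against 3 arrays cannot give a p below 0.1. Without null array 3 the rst minus kirre shift was -0.43 (exact permutation test, p = 0.1, the smallest that design allows), and without null array 1 it was -0.13.

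Among the adaptors, rols (also called ants) encodes the scaffold that links Kirre to the actin machinery in the founder cell. It read 7.21, 7.52 and 7.48 in the Oregon R arrays and 7.21, 7.24 and 6.94 in the null group. Null arrays 1 and 2 lay just above the lowest wild-type value and null array 3 lay below it. This was the lowest adjusted p among the 8 genes: the mean was 7.40 ± 0.17 against 7.13 ± 0.17 (SD, n = 3 each), a limma log2 difference of -0.27 (95% interval -0.58 to 0.04, adjusted p = 0.300). The gene blow encodes a pleckstrin-homology protein that acts in the fusion-competent cell and competes with WASp for the WASp-interacting protein. Its signals of 7.12, 7.43 and 7.33 in the Oregon R arrays and 7.31, 7.47 and 7.30 in the null group were the tightest of the 8, with a pooled SD of 0.130 within the groups. The difference was 0.07 (limma 95% interval -0.21 to 0.34, adjusted p = 0.809).

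The gene sing (singles bar) encodes a multipass membrane protein that acts late, before the membranes merge. Its values were 5.96, 6.49 and 6.05 in the Oregon R arrays and 5.95, 6.46 and 5.61 in the null embryos. Arrays 1 and 2 agreed closely between the genotypes (null minus wild type -0.01 and -0.03), while the arrays numbered 3 differed by -0.44. Over all arrays the difference was -0.16 (limma 95% interval -0.69 to 0.38, adjusted p = 0.764). It was 0.04 without null array 3, 0.002 without wild-type array 2 and -0.38 without null array 2.

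Vrp1 (also called solitary or D-WIP) encodes the WASp-interacting protein, which brings WASp to the fusion site. It had 7.85, 8.45 and 8.41 in the Oregon R arrays and 8.59, 8.92 and 8.28 in the null group. Null arrays 1 and 2 lay above every wild-type array, and null array 3 lay inside the wild-type range. This was the largest difference among the 8 genes, 1.28-fold, with means of 8.24 ± 0.34 and 8.60 ± 0.32 (SD, n = 3 each) and a limma log2 difference of 0.36 (95% interval -0.14 to 0.85, adjusted p = 0.399). Among the 5990 other genes with a mean above the median of all genes, the profile over the 6 arrays closest to that of Vrp1 was that of Tl, the Toll receptor gene, followed by g (an adaptor-complex subunit), Oatp30B (an anion transporter), su(Hw) (an insulator protein) and msn (a Ste20-type kinase). After centring each gene on its mean, their root-mean-square distances from Vrp1 were 0.086, 0.086, 0.104, 0.105 and 0.114 log2 units. None of these 5 was called either, with differences of 0.48 (Tl), 0.33 (g), 0.23 (Oatp30B), 0.39 (su(Hw)) and 0.28 (msn) and limma adjusted p between 0.226 and 0.518.

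**Figure D2:**
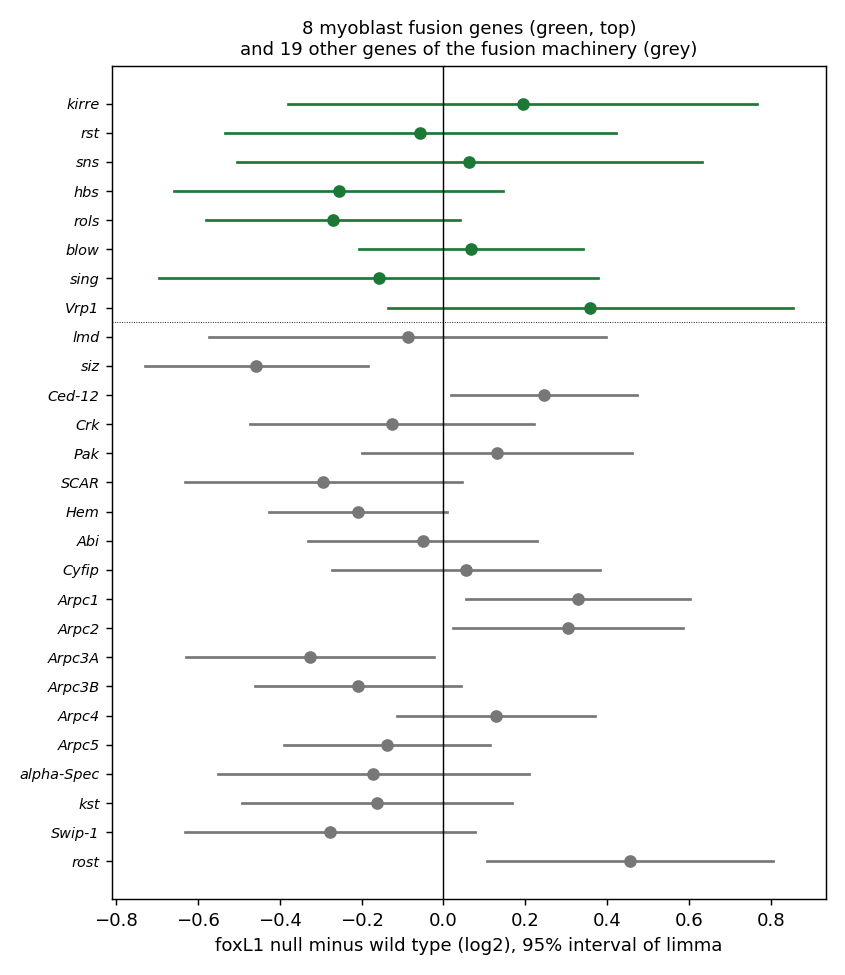
Difference between foxL1 null and wild type (log2, x axis) with limma's 95% confidence interval for the 8 measured fusion genes (green) and for 19 other genes of the fusion machinery (grey). All 8 green intervals include 0, and the 19 grey genes run from -0.46 (siz) to 0.46 (rost).

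What the fusion genes shared was their order within each genotype rather than a difference between genotypes, a pattern noticed after the values were seen and given without a test. All 8 were highest in array 2 of the wild type and also highest in array 2 of the null group. Of all genes, 22.6% showed this order, and of the genes within the range of mean signal of the 8, 27.9%. Array 2 exceeded the mean of the other arrays of its genotype by 0.18 (rols) to 0.62 (sns) in the Oregon R arrays and by 0.16 (blow) to 0.79 (kirre) in the null group. For sns, for example, array 2 stood 0.62 and 0.70 above the other arrays, against a difference between the genotypes of 0.06. All 8 kept this order after another quantile normalization, when 21.7% of all genes showed it, and after each array was centred on its median, when 35.6% did. The 3' minus 5' values of array 2 were 0.711 (wild type) and 0.823 (null) for actin, the highest of each genotype. Those of eIF-4a were 0.876, the lowest of the wild type, and 0.933, the highest of the null group. Those of GAPDH were 0.488, the highest of the wild type, and 0.527, below that of null array 3. The labels do not say what the shared number stands for.

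The contractile muscle genes, which act after fusion in the growing fibre, ran the other way in the same arrays. Of 12 measured contractile genes 0 were highest in both arrays numbered 2 and 10 were lowest in both, against 17.6% of all genes. Mlc1, a myosin light chain gene, read 12.30, 11.93 and 12.22 in the Oregon R arrays and 12.28, 11.77 and 12.24 in the null group, with array 2 the lowest in each. The mean deviation of the 8 fusion genes from their own means over the 6 arrays was 0.24 in wild-type array 2 and 0.33 in null array 2. The contractile genes stood at -0.25 and -0.35 in these arrays. Between the genotypes 0 of the 12 contractile genes rose and 0 fell, with 1 at an unadjusted p below 0.05 and a median limma difference of -0.15 (-0.03 after centring). Of the 19 other measured fusion genes 6 were highest in both arrays numbered 2 (31.6%), against 22.6% of all genes. The same order held for 3 of 6 early mesoderm factors, 2 of 4 neuronal and 3 of 6 hemocyte genes. It also held for 2 of 6 visceral mesoderm, 1 of 5 nephrocyte and 3 of 9 maternal genes. One of the 6 fusion genes was the factor gene lmd, which specifies fusion-competent cells, at 7.14, 7.64 and 7.19 in the Oregon R arrays and 7.03, 7.65 and 7.02 in the null group. Array 2 was its highest in each genotype, and its difference was -0.09 (limma adjusted p = 0.863).

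**Figure D3:**
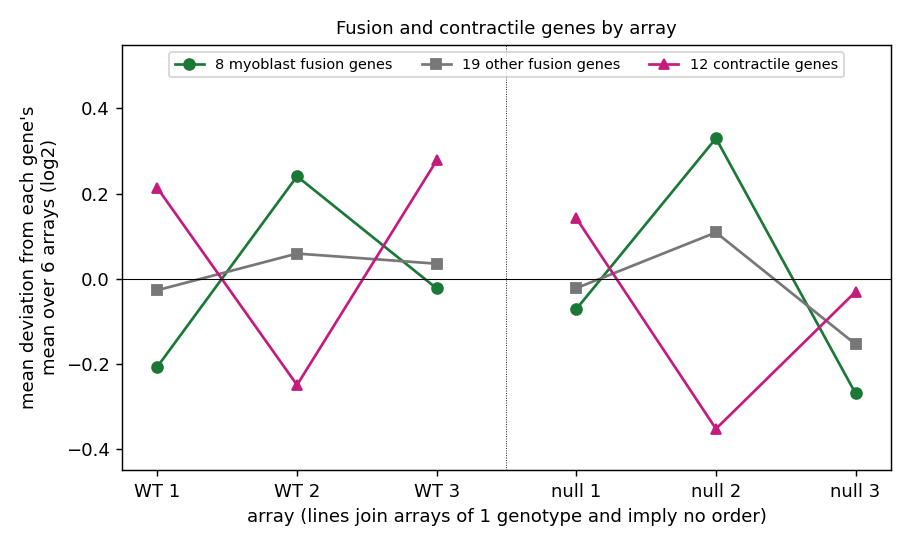
Mean deviation (log2, y axis) of the 8 fusion genes, 19 other fusion genes and 12 contractile genes from each gene's own mean over the 6 arrays, for each wild-type (WT) and foxL1 null array (x axis). In both genotypes the fusion genes are highest and the contractile genes lowest in the array numbered 2.

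The wider fusion machinery was followed in a list of 27 further genes, of which 19 had a probe set of their own. Of these 19, 0 rose and 0 fell in the limma fit (7.84% of all probe sets called), 6 had an unadjusted p below 0.05, and their median difference was -0.13, beside -0.07 over all genes (-0.007 and 0.05 after each array was centred on its median). The groups were apart for 8 of the 19, against 31.9% of all genes. The gene siz (loner), whose product activates an Arf GTPase in the founder cell, had the largest difference. It read 9.41, 9.45 and 9.47 in the Oregon R arrays and 8.92, 9.18 and 8.84 in the null group, lower in every null array. Its difference was -0.46 (SE 0.12, limma adjusted p = 0.0574), and with the replicate numbers as a block it was called as lower (adjusted p = 0.0411), the single call among the 19 in that fit, where 13.0% of all probe sets were called. A second siz probe set, with a wild-type signal of 3.98 on the log2 scale, differed by -0.04 (SE 0.13, limma adjusted p = 0.910). The gene rost read higher in every null array, 7.57, 7.42 and 7.86 against 8.25, 8.09 and 7.88, a difference of 0.46 (SE 0.15, limma adjusted p = 0.124).

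Among 4 measured subunits of the SCAR complex, which activates actin branching beside WASp, SCAR had the largest difference, -0.29 (SE 0.15, limma adjusted p = 0.303). The 6 measured subunits of the Arp2/3 complex, the nucleator of branched actin, read higher in the null group for 3 genes and lower for 3. Of the 6, 0 were called and 3 had an unadjusted p below 0.05. Arpc1 differed by 0.33 (SE 0.12, limma adjusted p = 0.153) and read higher in every null array, 8.34, 8.32 and 8.28 against 8.53, 8.55 and 8.85. Arpc3A went the other way, by -0.33 (SE 0.13, limma adjusted p = 0.200), and read lower in every null array. Its other probe sets differed by -0.32 (limma adjusted p = 0.145) and, with a wild-type signal of only 2.07, by 0.09. Of the spectrin genes, alpha-Spec had the largest difference, -0.17 (SE 0.16, limma adjusted p = 0.623).

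Marker lists of the mesoderm, of other cell types and of maternal transcripts were read beside the fusion genes. Of 6 measured early mesoderm and myogenic factors 0 rose and 0 fell, with 2 at an unadjusted p below 0.05 and all 6 lower in the null group (median limma difference -0.30), as were 7189 of all 11982 genes. After centring the median was -0.18 and zfh1 read higher. Among them twi, the mesoderm determinant, differed by -0.75 (SE 0.19, limma adjusted p = 0.0528, and 0.00442 with the replicate block, the lowest over the other settings). Of 6 visceral mesoderm genes 1 fell, bap, and 0 rose, where 10.2% of all genes were called. All 6 read lower in the null group, with a median limma difference of -0.27 (-0.15 after centring). The difference of bap was -0.52 (SE 0.13, limma adjusted p = 0.0498). The bap call was lost without wild-type array 1, 2 or 3 (limma adjusted p = 0.167, 0.120 and 0.159), without null array 2 or 3 (0.107 and 0.0940), and without both arrays numbered 2 (0.166). It was also lost after centring (0.108), after another quantile normalization (0.0671), with robust moderation (0.0725) and with array weights (0.0586). The call was kept with the replicate block (limma adjusted p = 0.0246) and without null array 1 (0.0320). Both signal filters (0.0476 and 0.0369) and probe-set averaging (0.0439) kept it too. The nephrocyte list, cells in which Sns and Kirre form the filtration slit, had 0 of 5 called, 0 at an unadjusted p below 0.05 and a median of -0.07 (0.05 after centring). Of 4 neuronal and 6 hemocyte genes 0 were called, with 0 and 2 at an unadjusted p below 0.05 and medians of -0.005 and -0.40 (0.11 and -0.28 after centring). Of 9 maternal transcripts 6 rose and 0 fell, with a median of 1.88, where 748 of all 11982 genes rose and 479 fell. The 6 rises ran from 0.44 (stau) to 2.48 (tor). The other 3 read lower in the null group without being called, osk by -0.62, gnu by -0.67 and png by -0.41 (limma adjusted p = 0.216, 0.262 and 0.0978). The part of these tissues in the signal of the fusion genes was not tested.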

How the data were processed

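Per the submitters' processing notes, the authors used Partek and RMA, with no versions given, and the deposited values are log2 expression values. RMA subtracts background, sets every array to one distribution and then merges the probes of a set. A shift common to most transcripts may therefore be hidden, and changes near the floor (25th percentile of mean signal 2.99) are compressed. The array medians after RMA still differed. Null arrays had medians of 4.87 to 4.94, all below those of the Oregon R arrays (4.96 to 5.08). The source of this difference was not tested. Detection calls were not used.

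Of 18952 probe sets, 183 controls were left out. Of the rest, 13647 named 1 gene in the platform annotation, 402 several and 4720 are unnamed here. Current symbols came from the RefSeq table for 13544 probe sets, and 103 kept the older symbol. Each gene was represented by its probe set of highest mean.

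Groups followed the genotype labels. The model (limma 3.58.1, functions lmFit and eBayes, R 4.3.3) had genotype as its only term, and p-values are 2-sided. It was checked on simulated data with independent noise in each value. Differences between arrays that many genes share were not part of that check. Same-numbered arrays' deviations from group means correlated at 0.108, 0.544 and 0.224, each over 0.1. The numbers were therefore used as a block in an alternative fit, a pairing taken from the data and not the labels. The reported fit and its intervals were unpaired. Wild-type array 1 correlated more with null array 3 (0.266). Blocked values stand where they change a call or are set beside those of the reported fit.

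Named are FoxL1, the 10 members, per role the other fusion gene of largest difference, of each marker list the 2 genes of smallest p (printed only where a result turns on them), and the 5 profiles closest to the member of largest difference. Arpc2, Arpc3A, Mlc1, zfh1, nSyb, futsch, osk, gnu, png and stau were named after their values were seen. Members, lists and tests were chosen with earlier results of these data known. The alternatives were the block, each array left out, another normalization, centring, robust moderation, array weights, 2 signal filters and probe-set averaging. Some further genes of the wider fusion machinery are not reported here.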

Additional observations from a re-analysis of the deposited data

How the results depend on the processing

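None of the 8 fusion genes was called under any of the 14 other settings, or, in one more chosen after seeing the data, without both arrays numbered 2 (lowest limma adjusted p over all of them 0.211). Their median difference ran from -0.22 to 0.10 when single arrays were left out and was 0.12 after centring, which moved the median of all probe sets from -0.03 to 0.09. The small differences of 5 genes changed sign. With single arrays left out, kirre ran from -0.071 to 0.42, rst from -0.26 to 0.11, sns from -0.17 to 0.27, blow from -0.020 to 0.13 and sing from -0.38 to 0.040. After centring rst differed by 0.062. hbs, rols and Vrp1 kept their direction in all of these settings. The cause was not tested.

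Of the 19 other fusion genes, 1 was called with the replicate block, 1 after another quantile normalization and 1 with probe sets above the 50th percentile of signal, each time siz as lower (limma adjusted p = 0.0411, 0.0393 and 0.0426). With array weights 2 were called, siz (0.0133) and Arpc2 as higher (0.0412). Leaving out single arrays gave 0 to 1, siz without null array 2 (0.0294) and Arpc2 without null array 3 (0.0479). The calls over all probe sets numbered 1472, 2441 with the replicate block, 2460 with array weights, 863 without both arrays numbered 2, and 663 to 1513 without single arrays. After centring 1503 were called, 1179 of them higher, against 887 of 1472. The rst minus kirre shift ran from -0.43 to -0.13 and the hbs minus sns shift from -0.43 to -0.22 without single arrays, and the exact sign-flip test over the pairs gave 0.5 and 0.25, where 0.25 is the smallest possible. The early mesoderm gene twi was not called in the reported fit (limma adjusted p = 0.0528). It was called as lower with the replicate block (0.00442), after another quantile normalization (0.0446) and with robust moderation (0.0495). Both signal filters (0.0486 and 0.0389) and probe-set averaging (0.0472) also called twi. Every fit that left out a single array lost the call (limma adjusted p = 0.0535 to 0.174). It was also not called after centring (0.0717), with array weights (0.0794) or without both arrays numbered 2 (0.129). Beside siz and twi, the replicate block changed no call of a gene named here.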
